A study of Mus musculus with 16 samples.

Results

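Genes of the piRNA pathway and of transposon defence in germ cells were followed through the growth of mouse oocytes. The 10 genes were chosen by name from what is known of the pathway, with earlier results of these data known. All 10 were present in the expression table of 25965 genes and passed its filter on low values, as 10518 genes did. They were Piwil2, Gtsf1, Ddx4, Mov10l1, Pld6, Asz1, Tdrd1, Tdrd9, Tdrd7 and Mael. All oocytes were wild type and came from pre-pubertal females of the C57BL/6 strain (C57BL/6Babr mice), each library being a pool of oocytes selected by diameter. RNA-seq was available for 4 diameter classes (10-30 μm, 40-45 μm, 50-55 μm, 60-65 μm), with 2 libraries each, and for 1 column of fully grown germinal vesicle (GV) oocytes. Reduced representation bisulphite sequencing (RRBS), which reads the methylation of CpG-rich DNA, was available for the 3 larger classes, with 2 libraries each, and post-bisulphite adapter tagging (PBAT), which samples the whole genome, for 60-65 μm with 1 library. Larger oocytes came from older females, so diameter and age cannot be told apart. The labels name replicates A and B without saying that they came from separate animals, and p-values therefore measure the spread between these libraries, which may be technical.

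PIWI proteins are Argonautes that carry small RNAs of germ cells, the piRNAs, and use them to find and cut transposon transcripts. The precursors of piRNAs are long single-stranded transcripts that are unwound, carried to the surface of mitochondria, cut and trimmed, and then amplified in granules held together by Tudor domain proteins. In fetal male germ cells the pathway also directs DNA methylation to transposons, whereas female mice that lack many of its genes stay fertile, and their oocytes also use small interfering RNAs.

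The members divide by role. Piwil2 (MILI) is the PIWI protein that cuts target RNA, and Gtsf1 encodes a small zinc finger protein that assists cutting by PIWI proteins. Mov10l1 is the RNA helicase that binds precursors, Pld6 (MitoPLD) the nuclease of the mitochondrial outer membrane and Asz1 (GASZ) its scaffold. Ddx4 (VASA) is the RNA helicase of the amplification step, and Mael encodes a granule protein with an HMG box. Tdrd1, Tdrd7 and Tdrd9 carry Tudor domains, which bind methylated arginines of PIWI proteins, and Tdrd9 also carries a helicase domain. On the GRCm38 build they lie on different chromosomes except Mov10l1 and Gtsf1, which are both on chromosome 15 but far apart. The expression table listed no gene start of another gene within 1 kb of any of the 10 starts, and the only overlapping gene was BC048943 on the opposite strand of Tdrd9, which was listed at 0.

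The promoters of 9 of the 10 genes were found among the RefSeq entries of 300 bases (250 before and 50 after the start, build GRCm38.p6), as 14 entries in all, and were searched on both strands for 5 short motifs. CACGTG, the E-box bound by MAX and MGA among others, was present in entries of 6 of these 9 genes, against 7.15% of all 32851 entries and 12.5% of the 7341 tested genes that had an entry. The share was 10.4% in entries of at least the median of 7 CpGs and 3.66% below it, and a gene with several entries has more chances to hold the motif. Of the other motifs, GCGGGA of the E2F family was present for Ddx4 and Mael, against 20% of all entries, and CAACNG of the MYB family for Pld6 and Tdrd7, against 35.0%. TGACGT and TAATTG were found in none of the 14 entries, against 7.51% and 8.0% of all entries. In the same search CACGTG was found for 5 of 21 other piRNA pathway genes with an entry (Piwil1, Stk31, Fkbp6, Adad2 and Wdr77), 0 of 18 other genes of transposon control and 1 of 8 oocyte markers (Zp3). The 6 promoters that hold it are printed 5′ to 3′ to show where it lies, with CACGTG in capitals, and this motif was picked for printing after all 5 had been counted. They are Ddx4 (chr13:112652261-112652560, minus strand), Mael (chr1:166238695-166238994, minus strand), Mov10l1 (chr15:88982744-88983043, plus strand), Pld6 (chr11:59787608-59787907, minus strand), Tdrd1 (chr19:56825959-56826258, plus strand) and Tdrd9 (chr12:111971309-111971608, plus strand).
Ddx4: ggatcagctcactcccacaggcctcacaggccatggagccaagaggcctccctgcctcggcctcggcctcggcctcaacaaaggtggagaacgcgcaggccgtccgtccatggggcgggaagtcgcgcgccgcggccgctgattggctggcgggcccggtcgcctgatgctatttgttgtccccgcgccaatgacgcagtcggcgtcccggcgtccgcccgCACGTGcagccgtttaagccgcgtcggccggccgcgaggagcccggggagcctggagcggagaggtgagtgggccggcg
Mael: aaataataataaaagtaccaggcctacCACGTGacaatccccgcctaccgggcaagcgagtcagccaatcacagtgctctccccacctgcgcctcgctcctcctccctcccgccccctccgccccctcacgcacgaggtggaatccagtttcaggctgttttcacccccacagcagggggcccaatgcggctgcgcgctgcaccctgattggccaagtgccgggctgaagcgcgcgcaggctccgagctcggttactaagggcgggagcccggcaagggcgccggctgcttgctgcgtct
Mov10l1: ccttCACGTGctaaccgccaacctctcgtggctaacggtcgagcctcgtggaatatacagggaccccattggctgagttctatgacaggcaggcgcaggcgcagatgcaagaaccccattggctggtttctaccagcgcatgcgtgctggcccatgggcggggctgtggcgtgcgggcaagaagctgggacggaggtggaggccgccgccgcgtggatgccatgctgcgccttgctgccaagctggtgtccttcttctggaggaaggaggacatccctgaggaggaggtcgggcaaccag
Pld6: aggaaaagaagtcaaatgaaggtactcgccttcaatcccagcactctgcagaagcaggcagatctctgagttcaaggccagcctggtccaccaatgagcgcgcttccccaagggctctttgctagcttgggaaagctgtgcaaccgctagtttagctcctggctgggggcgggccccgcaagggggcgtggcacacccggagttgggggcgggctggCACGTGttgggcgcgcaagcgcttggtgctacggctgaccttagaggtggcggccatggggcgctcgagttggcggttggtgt
Tdrd1: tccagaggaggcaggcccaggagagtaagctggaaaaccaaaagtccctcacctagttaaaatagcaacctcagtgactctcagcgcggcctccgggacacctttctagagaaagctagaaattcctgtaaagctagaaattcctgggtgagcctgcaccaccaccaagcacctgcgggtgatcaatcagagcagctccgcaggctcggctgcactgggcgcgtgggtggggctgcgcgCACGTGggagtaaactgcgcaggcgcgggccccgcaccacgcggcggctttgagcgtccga
Tdrd9: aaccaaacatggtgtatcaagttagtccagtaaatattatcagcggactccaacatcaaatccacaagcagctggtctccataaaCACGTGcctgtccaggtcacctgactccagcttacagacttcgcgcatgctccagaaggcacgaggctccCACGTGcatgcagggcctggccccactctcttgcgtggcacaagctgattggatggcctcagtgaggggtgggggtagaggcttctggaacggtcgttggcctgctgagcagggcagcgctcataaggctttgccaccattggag

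The motif began 11 bases before the start in the printed entry of Tdrd1 (the same motif lies 77 bases before the start of its other entry that holds it), 29 in Ddx4, 33 in Pld6, 165 and again 95 in Tdrd9, 223 in Mael and 246 in Mov10l1. A match of these letters is a description of the sequence and was not tested as a binding site.

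The libraries of growing oocytes rested on about 99400000 to 191000000 reads each and the GV column on 198000000. The fewest reads for a member in any library were 214, for Pld6, and the most 46854, for Tdrd1. All 12 oocyte markers were present. Their summed level was 3964 to 4023 RPKM (reads per kilobase of exon, scaled to the size of the library) at 10-30 μm and 3052 to 3236 at 60-65 μm, with 6 of the 12 lower and 2 higher. The summed level of 12 granulosa cell markers was 2.62 to 2.93 RPKM at 10-30 μm and 8.55 to 9.00 at 60-65 μm, with 4 of the 12 higher and 7 below 0.5 RPKM in all libraries. That of 8 theca and stroma markers was 2.85 to 4.0 at 10-30 μm and 0.544 to 1.82 in the later growing classes, with 3 lower. Of 5 blood and immune markers 4 were in the table, summing to 0.229 to 0.423 RPKM. The part of these shifts in the values of the members was not tested.

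The RNA of the pathway genes parted into 3 patterns, as the plot of RPKM by class shows. Mov10l1, Mael and Piwil2 fell steeply from the smallest oocytes on, Ddx4 and Tdrd9 fell to a lesser degree, and the class means of Tdrd1, Tdrd7, Asz1, Gtsf1 and Pld6 at the 2 ends of growth differed by 1.36-fold or less. Between 10-30 and 60-65 μm limma called 6 members lower (Mov10l1, Mael, Piwil2, Ddx4, Tdrd9 and Gtsf1) and 1 higher (Pld6), at an adjusted p under 0.05 over all genes tested. Of all genes tested 31.5% were called lower and 31.8% higher in that comparison. The median log2 fold change of the 10 members was -0.46, against 0.00 over all genes tested. RPKM is a share of all counted RNA. The paper states that mRNA content rises substantially as oocytes grow, so a lower share does not show less of a transcript per oocyte. In pooled oocytes a change in how many cells hold a transcript and a change per cell cannot be told apart.

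**Figure D1:**
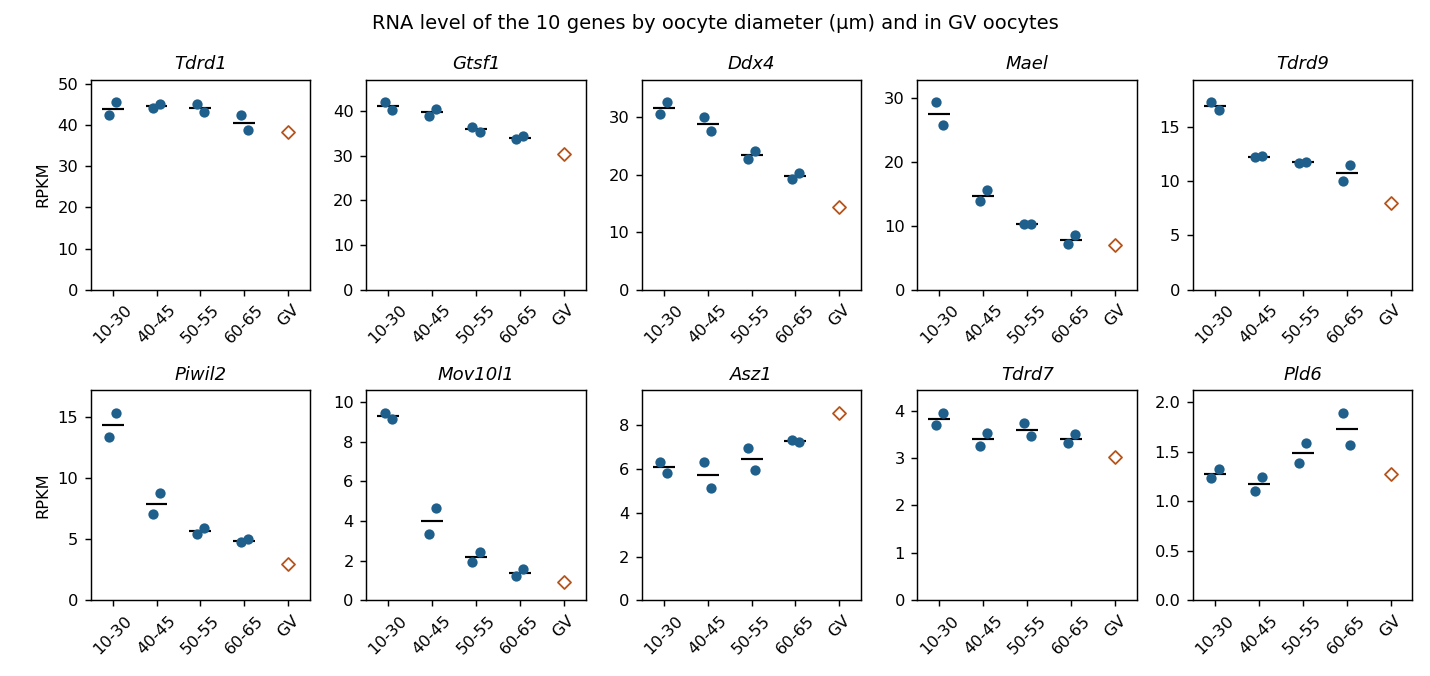
RNA level (RPKM, linear axis from 0) of each of the 10 genes by oocyte diameter class in μm. Blue points are the 2 libraries of a class, black lines their mean, and the open diamond the single GV column. Mov10l1, Mael and Piwil2 drop from the first class on, while the points of Tdrd7 overlap between classes.

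Mov10l1, the helicase that feeds precursors into the pathway, changed most. Its level was 9.46 and 9.14 RPKM at 10-30 μm, 3.35 and 4.67 at 40-45 μm, 1.93 and 2.42 at 50-55 μm, 1.23 and 1.56 at 60-65 μm and 0.909 in the GV column. The 4 growing classes did not overlap and each lay below the one before. By 60-65 μm the mean was 15% of that at 10-30 μm (1.39 ± 0.232 against 9.30 ± 0.232 RPKM, SD, n = 2 each), and limma gave a log2 fold change of -2.66 ± 0.18 (SE) with an adjusted p of 1.1e-05. It called both earlier steps, with log2 fold changes of -1.15 (adjusted p = 0.0038) from 10-30 to 40-45 μm and -0.87 (adjusted p = 0.024) from 40-45 to 50-55 μm. The second call was lost with no filter on low values, without replicate B at 40-45 μm and without replicate A at 50-55 μm, where the limma adjusted p was 0.059, 0.14 and 0.19. Among the genes of the table Mov10l1 moved from the 92.3rd percentile of RPKM at 10-30 μm to the 70.3rd at 60-65 μm.

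Piwil2, the PIWI protein itself, fell as well. Its level was 13.3 and 15.3 RPKM at 10-30 μm, 7.04 and 8.73 at 40-45 μm, 5.40 and 5.93 at 50-55 μm, 4.79 and 4.97 at 60-65 μm and 2.97 in the GV column. No classes overlapped, and the steps became smaller with diameter. The mean fell from 14.3 ± 1.45 to 4.88 ± 0.127 RPKM (SD, n = 2 each), a log2 fold change of -1.52 ± 0.11 with an adjusted p of 1.6e-05 by limma. The first step amounted to -0.79 (limma adjusted p = 0.0029) and the second to -0.49 (limma adjusted p = 0.035). The second call was lost with no scaling, with no filter on low values, in a fit of those classes alone, without replicate B at 40-45 μm and without any single library at 50-55 or 60-65 μm, where the limma adjusted p was 0.059 to 0.25. With the RefSeq table holding no promoter entry for Piwil2, none is printed.

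Mael, which encodes the HMG box protein of the granules, had 29.3 and 25.7 RPKM at 10-30 μm, 13.8 and 15.5 at 40-45 μm, 10.3 and 10.2 at 50-55 μm, 7.06 and 8.58 at 60-65 μm and 6.95 in the GV column. The drop between the first classes was the largest in RPKM of any member, and again no classes overlapped. From 10-30 to 60-65 μm the mean fell from 27.5 ± 2.57 to 7.82 ± 1.08 RPKM (SD, n = 2 each), with a log2 fold change of -1.80 ± 0.13 and an adjusted p of 1.6e-05 by limma. The steps to 40-45 and 50-55 μm were -0.84 (limma adjusted p = 0.0043) and -0.54 (limma adjusted p = 0.045). The second call was lost with no filter on low values and without any single library at 40-45, 50-55 or 60-65 μm, where the limma adjusted p was 0.064 to 0.22.

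Tdrd9, the Tudor domain helicase, had a lower mean in each later class. It had 17.3 and 16.6 RPKM at 10-30 μm, 12.2 and 12.3 at 40-45 μm, 11.7 and 11.8 at 50-55 μm, 10.0 and 11.5 at 60-65 μm and 8.03 in the GV column. The smallest oocytes stood clear of all the others, and both libraries at 60-65 μm lay below all earlier ones. The first step was called, with a log2 fold change of -0.40 ± 0.11 (limma adjusted p = 0.032), and so was the whole course, with -0.65 ± 0.11 (limma adjusted p = 0.00098). The call of the first step was lost without replicate A at 10-30 μm, without either replicate at 40-45 or at 50-55 μm, with no filter on low values and in a fit of those classes alone, where the limma adjusted p was 0.06 to 0.12.

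Ddx4, the VASA helicase, fell over the whole course. It had 30.5 and 32.6 RPKM at 10-30 μm, 30.1 and 27.6 at 40-45 μm, 22.7 and 24.2 at 50-55 μm, a mean of 19.8 ± 0.807 at 60-65 μm (SD, n = 2, the higher library at 20.3) and 14.4 in the GV column. The first 2 classes lay close together, and the 2 later ones lay below both. Only the whole course passed the test, with a log2 fold change of -0.67 ± 0.10 and an adjusted p of 0.00063 by limma. The 3 steps were -0.06 ± 0.10, -0.32 ± 0.10 and -0.28 ± 0.10, with limma adjusted p of 0.71, 0.082 and 0.29.

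Gtsf1, the cofactor of PIWI proteins, was the second most abundant member at every size. Its level was 42.0 and 40.3 RPKM at 10-30 μm, 38.9 and 40.5 at 40-45 μm, 36.5 and 35.4 at 50-55 μm, 33.7 and 34.4 at 60-65 μm and 30.5 in the GV column. The libraries at 60-65 μm lay below all earlier ones. The whole course was a log2 fold change of -0.27 ± 0.10 (limma adjusted p = 0.036), and this call was lost without replicate A at 10-30 μm or any single library at 50-55 or 60-65 μm, and in a fit of those classes alone (limma adjusted p of 0.064 to 0.18).

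Pld6, the mitochondrial nuclease, was the only member called higher, at the lowest levels of the group in the smaller classes. It had 1.23 and 1.32 RPKM at 10-30 μm, 1.10 and 1.24 at 40-45 μm, 1.38 and 1.59 at 50-55 μm, 1.89 and 1.57 at 60-65 μm and 1.27 in the GV column. Both libraries at 60-65 μm lay above both at 10-30 μm, while the GV column lay between those at 10-30 μm. The log2 fold change was 0.42 ± 0.12 (limma adjusted p = 0.017), and without replicate A or B at 10-30 μm or replicate A at 60-65 μm the limma adjusted p was 0.063, 0.053 and 0.13.

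Tdrd1, the Tudor scaffold that binds PIWIL2, was the most abundant of the 10 throughout. It had 42.5 and 45.6 RPKM at 10-30 μm, 44.2 and 45.1 at 40-45 μm, 45.2 and 43.1 at 50-55 μm, 42.4 and 38.8 at 60-65 μm and 38.4 in the GV column. The classes up to 50-55 μm overlapped, and both libraries at 60-65 μm lay below all earlier ones. Its log2 fold change over the whole course was -0.11 ± 0.09 (limma adjusted p = 0.32). Tdrd7 had 3.25 to 3.95 RPKM in the 8 libraries and 3.03 in the GV column, with overlapping classes and -0.16 ± 0.09 (limma adjusted p = 0.18). Asz1, the mitochondrial scaffold, had 5.12 to 6.96 RPKM up to 50-55 μm, 7.31 and 7.22 at 60-65 μm and 8.56 in the GV column. Both 60-65 μm libraries were above all smaller ones, yet the log2 fold change of 0.26 ± 0.14 did not pass (limma adjusted p = 0.14). It passed narrowly with a term for the replicate letter in the fit (limma adjusted p = 0.048). A value that misses the threshold with 2 libraries a class does not show that the RNA stayed the same.

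**Figure D2:**
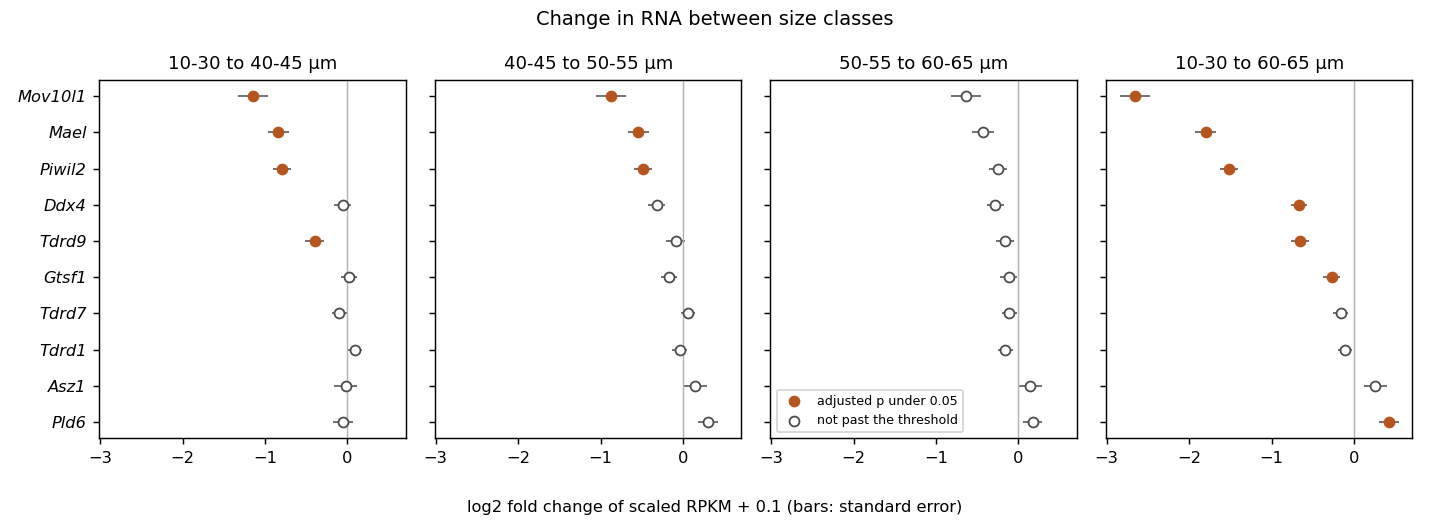
Log2 fold change of scaled RPKM plus 0.1 for each gene in 3 consecutive steps and over the whole course, with bars of 1 standard error from limma. Filled points passed an adjusted p under 0.05 and open points did not. The filled points lie left of 0 except Pld6 over the whole course (0.42).

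By step, 4 members were called lower from 10-30 to 40-45 μm and none higher, against 9.84% and 13.2% of all genes tested. Without the scaling between libraries, the split of calls over all genes in that step turned from 1386 higher and 1035 lower to 1088 higher and 1521 lower, while the members called lower numbered 4 in both. The counts over all genes were 571 higher and 290 lower without replicate A at 40-45 μm, 865 and 319 without replicate A at 10-30 μm, and 636 lower without replicate B at 40-45 μm, with 3 members called lower in each of these. From 40-45 to 50-55 μm 3 members were called lower and none higher, against 3.10% and 5.65%. Those 3 calls were fragile, since the step had 0 calls over all genes without replicate B at 40-45 μm or without replicate A at 50-55 μm, and 1 member (Mov10l1) called without replicate B at 50-55 μm or without either replicate at 60-65 μm. With no filter on low values 0 members were called in that step. From 50-55 to 60-65 μm 0 members and 0% of all genes were called in either direction by limma, or by edgeR on reads recovered from the RPKM values. At an unadjusted p under 0.05 limma gave 3 members (Mov10l1, Mael and Ddx4, all lower) and 1429 genes in that step.

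The order of levels changed with growth. At 10-30 μm the class means descended from Tdrd1 (44.1 RPKM) through Gtsf1 (41.2), Ddx4 (31.6), Mael (27.5), Tdrd9 (16.9), Piwil2 (14.3), Mov10l1 (9.30), Asz1 (6.08) and Tdrd7 (3.83) to Pld6 (1.27), and no neighbours in this order overlapped. At 60-65 μm the order was Tdrd1 (40.6), Gtsf1 (34.0), Ddx4 (19.8), Tdrd9 (10.8), Mael (7.82), Asz1 (7.27), Piwil2 (4.88), Tdrd7 (3.41), Pld6 (1.73) and Mov10l1 (1.39). There the libraries of Mael and Asz1 overlapped, and those of Pld6 and Mov10l1 came as near as 1.57 and 1.56 RPKM. The GV column was below both 60-65 μm libraries for 9 members and above them for Asz1. With 1 column the GV values carry no replicate check and no test.

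The gene of closest course to each member was found by Pearson correlation of log2 values over the 8 growing libraries, which share class and depth. It was Tfap4 for Piwil2 (r = 0.9990), Ift27 for Mael (r = 0.9983), H2afy for Mov10l1 (r = 0.9981), Nfkbil1 for Tdrd9 (r = 0.9961), Scarb2 for Ddx4 (r = 0.9935), Nkiras1 for Gtsf1 (r = 0.9909), Zfp472 for Asz1 (r = 0.9902), Tmem180 for Pld6 (r = 0.9741), Ccdc60 for Tdrd1 (r = 0.9277) and Bivm for Tdrd7 (r = 0.9127). A falling course was common, with 1241 genes above r = 0.95 with Mael and 1138 with Mov10l1, against 0 with Tdrd1 or Tdrd7. Among the members the closest were Mael and Mov10l1 (r = 0.991), followed by Piwil2 and Mov10l1 (r = 0.989).

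Of a list of 34 other genes of the piRNA pathway, 29 were in the table and 23 were tested. Over the whole course 11 of the 23 were called lower and 5 higher, with a median log2 fold change of -0.35, against 31.5% lower and 31.8% higher over all genes tested. By step 8 were lower and 4 higher from 10-30 to 40-45 μm (9.84% and 13.2% of all genes), and 3 lower and 1 higher from 40-45 to 50-55 μm (3.10% and 5.65%). None was called from 50-55 to 60-65 μm, where 8 had an unadjusted p under 0.05 by limma, against 1429 of all 10518 genes. Among those that fell were Fkbp6, a co-chaperone of piRNA formation, from a mean of 22.2 to 5.18 RPKM (log2 fold change -2.06 ± 0.15) and Tex15, which acts in piRNA-directed DNA methylation in male germ cells, from 20 to 5.56 RPKM (-1.82 ± 0.14). Prmt5, the enzyme that methylates the arginines read by Tudor domains, fell from 4.71 to 1.53 RPKM (-1.55 ± 0.11), Adad2 from 18.5 to 7.05 (-1.38 ± 0.11) and Tex14, a protein of germ cell bridges, from 3.05 to 1.30 (-1.16 ± 0.11). These 5 had an adjusted p of 1.5e-05 to 6.1e-05 by limma.

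The other PIWI genes started low. Piwil1 (MIWI) had 0.117 to 0.257 RPKM in the libraries up to 50-55 μm, 0.965 and 0.533 at 60-65 μm and 1.66 in the GV column, and its log2 fold change over the whole course was 1.37 ± 0.24 (limma adjusted p = 0.0013). Piwil4 (MIWI2) had 0.0230 to 0.0561 RPKM and was below the filter. Spocd1, which links MIWI2 to DNA methylation in male germ cells, rose from a mean of 0.150 to 1.30 RPKM (2.49 ± 0.17, limma adjusted p = 1.2e-05). Nanos2, an RNA-binding protein of male germ cells, rose from 2.55 to 7.96 RPKM (1.60 ± 0.13, limma adjusted p = 2.3e-05). Tdrd12, a Tudor domain helicase, rose from 16.3 to 30.4 RPKM (0.90 ± 0.14, limma adjusted p = 0.00079), so that Tudor domain genes moved both ways.

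Of 20 genes of other transposon control 19 were in the table and 14 were tested, with 5 lower, 2 higher and a median log2 fold change of 0.00 over the whole course. With 31.5% of all genes called lower and 31.8% higher, the count of lower genes was near the background. By step 4 were lower and none higher from 10-30 to 40-45 μm, against 9.84% and 13.2% of all genes tested. None was called from 40-45 to 50-55 μm, against 3.10% lower and 5.65% higher, and none from 50-55 to 60-65 μm, against 0%. In these later steps 5 and 2 had an unadjusted p under 0.05 by limma, against 3003 and 1429 of all 10518 genes. Zfp809, a zinc finger protein that silences retroviruses, fell from 2.27 to 0.601 RPKM (-1.75 ± 0.14, limma adjusted p = 2.3e-05). Subunits of RNase H2, which removes RNA paired with DNA, fell too, Rnaseh2b from 1.07 to 0.456 RPKM (-1.06 ± 0.11) and Rnaseh2c from 3.58 to 1.85 (-0.91 ± 0.14), with limma adjusted p of 7.8e-05 and 0.00079.

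DNA methylation was measured next, at the gene starts (1 kb on each side) and in the gene bodies (from 2 kb after the start to the end of the gene), as the mean over cytosines of at least 5 reads. The windows around the starts held 31.0 to 91.0 CpGs with a median of 56.5, against a median of 86.0 for tested genes. The PBAT library of 60-65 μm oocytes showed lower methylation at most member starts than in the bodies, as the plot by distance from the start shows. Pooling all calls, methylation within 1 kb of the start was 4.78% to 23.3% and more than 5 kb after it 37.3% to 69.8%, and the 95% Wilson intervals of those stretches did not overlap in any of the 9 genes long enough to have both. With 1 library there is no test, and the intervals cover counting error only. They treat all calls as independent, although cytosines on the same read are not, so they are too narrow.

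**Figure D3:**
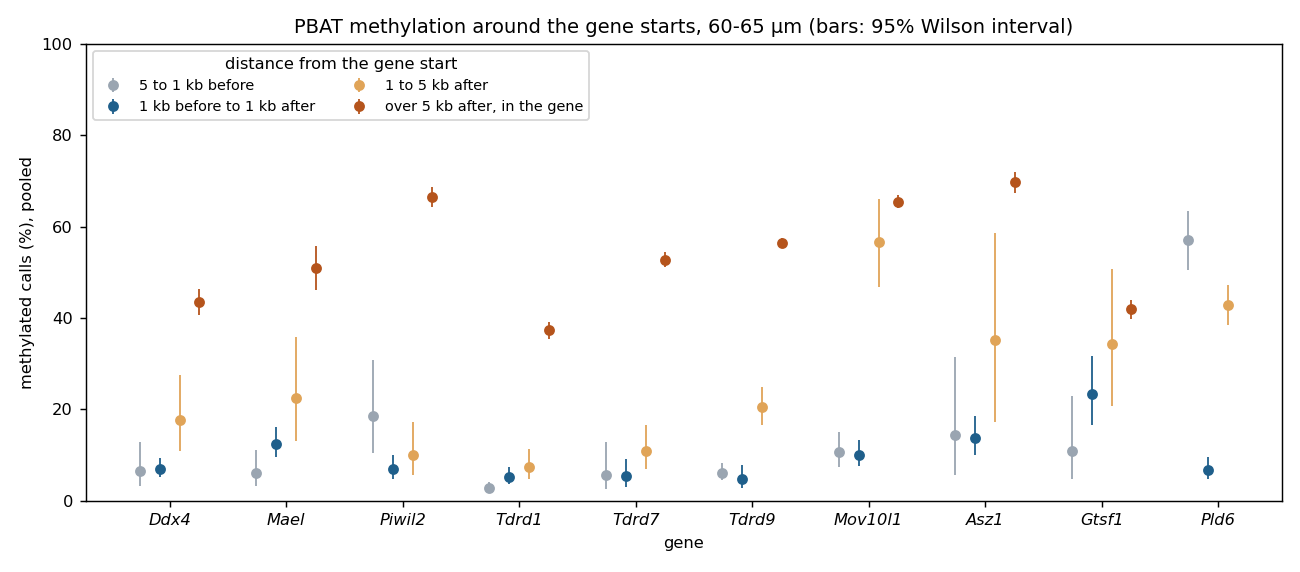
Methylated calls as a percentage of all PBAT calls at 60-65 μm in 4 stretches set by distance from each gene start, 1 library. Bars are 95% Wilson intervals, which cover counting error only and treat all calls as independent. The dark blue points around the starts lie below the brown points over 5 kb into the gene, and Pld6, a gene of 3.75 kb, has no such stretch.

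At the starts of Tdrd7, Ddx4, Tdrd9, Pld6, Piwil2, Tdrd1 and Mov10l1 the PBAT mean was 3.53%, 3.62%, 4.21%, 5.60%, 6.61%, 6.61% and 7.92%. Tested genes had a median of 3.51% and an upper quartile of 5.23%, and the 10 members a median of 6.61%. Mael stood higher with 17.5% over 21 positions and 11.7% when every position of at least 1 read was used. Asz1 had 24.3% from 12 positions and Gtsf1 44.0% from 5 positions with 25 calls, which became 9.75% and 19.8% at 1 read. At 1 read Ddx4 had 8.71% and Tdrd7 6.07%, so that the gap between the starts narrowed. Between 1 and 5 kb after the start 56.7% of calls were already methylated in Mov10l1 (Wilson interval 46.8% to 66.1%), against 7.39% in Tdrd1 (4.78% to 11.3%). Before the start Pld6 differed from the rest, with 57.1% between 5 and 1 kb before it, 6.83% around it and 42.8% between 1 and 5 kb after it.

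In the bodies PBAT gave 34.9% for Tdrd1, 40.0% for Gtsf1, 40.6% for Ddx4, 48.3% for Mael, 51.3% for Tdrd7, 55.4% for Tdrd9, 65.3% for Piwil2, 66.4% for Mov10l1 and 72.1% for Asz1. The median over 8739 tested genes was 50.6%, and the members spread from the 23.6th percentile (Tdrd1) to the 95.5th (Asz1). The most abundant RNA of the group, Tdrd1, had the lowest body methylation at this read minimum, but at 1 read Gtsf1 was lower (31.6% against 32.9%). Mov10l1 with the lowest RNA of the group at this size was at the 87.7th percentile. Over 9 genes this is a description without a test.

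RRBS covered the starts of 8 members in 2 or more libraries. At 50-55 μm the libraries differed. In replicate A the 7 members with at least 5 positions had a median of 0.347%, against 0.606% over tested genes. In replicate B the 6 such members had 5.68%, against 0.360%. Over the 5 members tested the library medians were 0.347% and 6.86%, so that their mean of 3.60% rests on replicate B, and it was 8.57% when positions of 1 read were used. Ddx4, with 32 to 43 positions, had 0.777% and 0.663% at 40-45 μm, 1.96% and 6.86% at 50-55 μm, followed by 1.94% and 1.33% at 60-65 μm. Tdrd1 had 2.35% and 0.980%, then 6.69% and 1.67%, then 2.61% and 2.92%. Piwil2 had 1.43% and 0%, then 0% and 4.51%, then 1.33% and 1.16%, and Asz1 had 0.607% and 0%, then 0.304% and 7.07%, then 0.265% and 1.87%. Tdrd7, with 4 positions, and Pld6 were at 0% in each of the 5 libraries that covered them. If calls were independent, 0 methylated of 88 to 178 calls would allow up to 1.69% to 3.41% in Tdrd7. In Pld6 0 of 30 to 139 calls would allow up to 2.16% to 10.0%. Neighbouring cytosines are read on the same read, so the true limits are wider. Gtsf1 was not covered and Mov10l1 was covered in 1 library only, with 3 positions. The medians over all genes were 0.383% to 0.632% in the 6 libraries.

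Mael was the exception at its start. It had 1.69% and 0.565% at 40-45 μm, 0.347% and 27.9% at 50-55 μm, followed by 2.58% and 0% at 60-65 μm. Replicate B at 50-55 μm stood apart from every other library, with 19 positions where the others had 25 to 33. Only 78 of 12234 genes were at or above its value there. Neighbouring positions shared counts in that library, such as 4 of 17, 20 of 82, 2 of 5 and 9 of 30 calls. The 19 positions are thus not separate measures. The same library held the highest values of Ddx4, Piwil2 and Asz1. Tdrd9 read 17% in replicate A at 40-45 μm from 5 positions, which became 1.60% at 10 reads, and 0% to 2.41% in the others. In edgeR's quasi-likelihood test of the calls, 0 of the 5 members tested at their starts (Ddx4, Mael, Piwil2, Tdrd1 and Asz1) were called in any comparison, with adjusted p of 1.0 throughout and a lowest unadjusted p of 0.088 for Ddx4. Of 11984 starts tested 0.0751% were called higher from 40-45 to 50-55 μm, 0% from 50-55 to 60-65 μm and 0.592% from 40-45 to 60-65 μm, and at an unadjusted p under 0.05 edgeR gave 443, 253 and 466. The 71 starts called from 40-45 to 60-65 μm became 24 and 21 without replicate A or B at 60-65 μm and 40 without replicate B at 40-45 μm. The 9 called from 40-45 to 50-55 μm became 18 and 1 without replicate A or B at 40-45 μm, 1 and 2 without replicate A or B at 50-55 μm and 2 without replicate B at 60-65 μm. limma on the log ratio of calls also called 0 members.

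Of the 6 promoters printed above, the CpG inside CACGTG was read by RRBS in Ddx4, where 0 of 71 calls were methylated at 40-45 μm (which allows up to 4.23%), 1 of 101 at 50-55 μm and 2 of 91 at 60-65 μm. That of Pld6 had 0 methylated of 11, 8 and 7 calls in the 3 classes, which allows up to 27.3%, 37.5% and 42.9%. PBAT gave 3 of 10 calls methylated in Mov10l1, 3 of 11 in Tdrd1, 2 of 14 in Tdrd9, 0 of 6 in Ddx4 and 0 of 2 in Mael and Pld6. Such small counts do not separate these promoters, and the limits take the calls as independent.

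In the bodies, by contrast, methylation rose with diameter, as the plot of RRBS values by class shows. Of the 4 members with at least 5 positions in every library, edgeR called Tdrd9, Mov10l1, Tdrd7 and Asz1 higher from 40-45 to 60-65 μm, with adjusted p of 0.00043, 0.00098, 0.0019 and 0.016. Of 7093 gene bodies tested 50.9% were called higher, so that a rise was the common course. From 40-45 to 50-55 μm 3 of the 4 were called (Tdrd9, Tdrd7 and Mov10l1, edgeR adjusted p of 0.0033, 0.014 and 0.019), against 41.5% of all, and without replicate B at 40-45 μm only Tdrd9 was. From 50-55 to 60-65 μm edgeR called 0 members and 0% of all bodies, while 2 members and 1938 bodies had an unadjusted p under 0.05. Here limma on the log ratio of calls also called 0. When only bodies of at least 5% mean methylation were tested, edgeR called 2 members (Mov10l1 and Tdrd9) and 1621 of 4096 bodies higher. The test of gene bodies was added after the values had been seen.

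**Figure D4:**
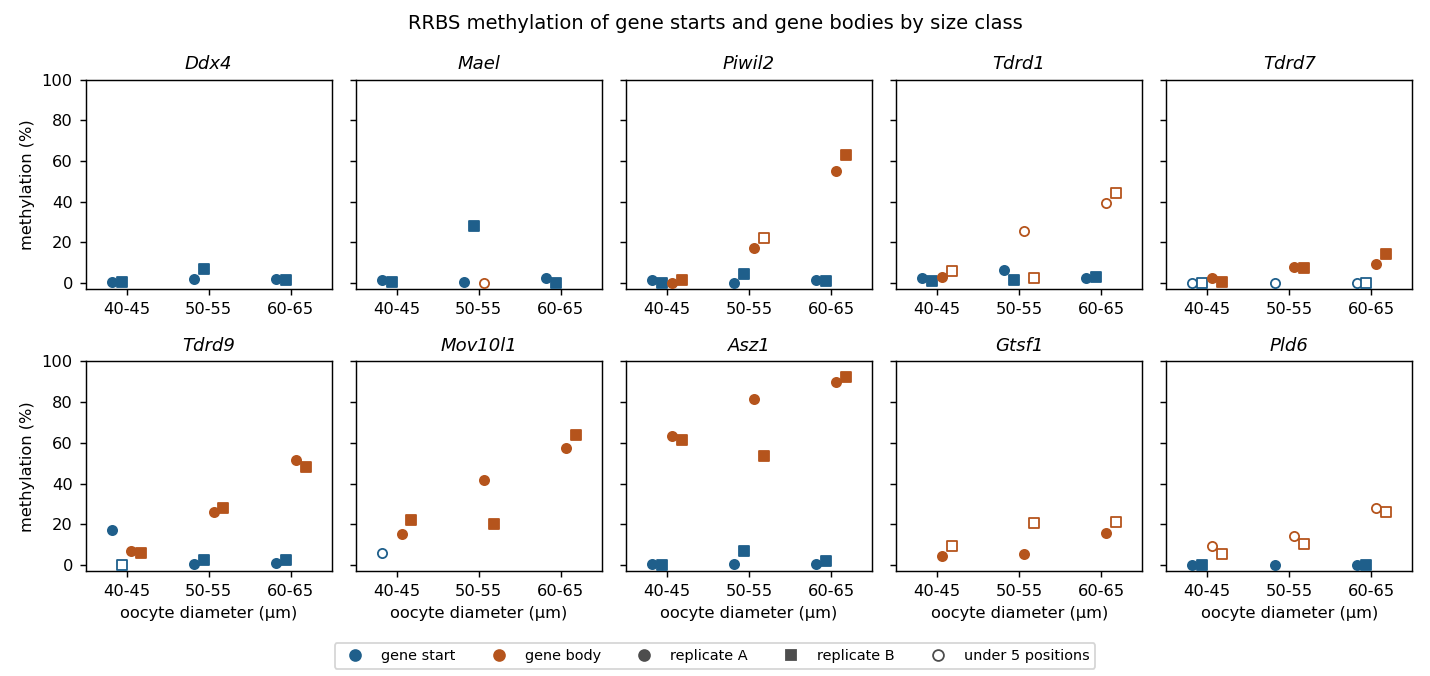
RRBS methylation (%) of gene starts (blue) and gene bodies (brown) by diameter class, with circles for replicate A, squares for replicate B and open symbols for values from fewer than 5 positions. Bodies of Piwil2, Tdrd9, Mov10l1 and Asz1 are higher at 60-65 than at 40-45 μm in both libraries, most starts lie near 0, and the start of Mael in replicate B at 50-55 μm (27.9%) stands apart.

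Tdrd9 had 7.04% and 5.97% in its body at 40-45 μm, 26.2% and 28.0% at 50-55 μm, followed by 51.7% and 48.3% at 60-65 μm. The classes did not overlap, and 31 to 47 positions were read in each library. Mov10l1 had 15.1% and 22%, then 41.8% and 20.2%, then 57.7% and 63.8%. At the 10 positions that all 6 libraries shared it had 5.00% and 1.44%, then 30.8% and 22.2%, then 56.9% and 59.9%, without overlap of the classes. Piwil2, with 4 to 6 positions and no test, had 0.168% and 1.54%, then 17.3% and 22%, then 55.3% and 62.9%. The classes did not overlap.

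Asz1 started high, with 63.6% and 61.3% at 40-45 μm, 81.4% and 53.3% at 50-55 μm, followed by 89.8% and 92.2% at 60-65 μm. Of its 5 shared positions 4 lay in annotated repeats, which had 78.0% and 74.9% at 40-45 μm, while the one outside had 6.06% and 7.06% there and 86.8% and 79.7% at 60-65 μm. The value of 53.3% included 2 positions that other libraries did not cover, and at the shared positions it was 74.7%. Tdrd7 had 2.67% and 0.403%, then 8.18% and 7.43%, then 9.51% and 14.3%. Most of its positions lay within 1 kb of another RefSeq start inside the gene and had 0% to 2.06% in every library, whereas the 9 to 10 others had 4.92% and 1.89%, then 44.0% and 35.5%, then 61.7% and 63.7%. The single covered position in Pld6 had 9.17% and 5.51%, then 14.0% and 10.1%, then 27.8% and 25.9%. Tdrd1, with 3 positions in 5 of the libraries, had 3.0% and 5.99%, then 25.8% and 2.56%, then 39.3% and 44.3%, and Gtsf1 had 4.38% and 9.53%, then 5.18% and 20.6%, then 15.9% and 21.1%. Ddx4 had no covered position and Mael 1, in a single library. These subsets of positions were also chosen after the data were seen.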

How the data were processed

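The authors trimmed RNA-seq reads with Trim Galore 0.2.8, aligned them to GRCm38 with TopHat2 2.0.9 and deposited one RPKM value per gene and library. SeqMonk is named for the RNA-seq analysis, but that it made the table, and whether counting used strand, is not given in the sources used here, although the libraries were strand-specific. For RRBS (Trim Galore 0.3.5, Bismark 0.14.0) the authors deposited the percent methylation and the count of methylated and unmethylated calls at each cytosine; duplicate removal for RRBS is not stated in the sources used here, and PBAT was deduplicated. RRBS held 30000113 to 57319823 calls per library and PBAT 99039028, with a median of 2 per position.

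RPKM were scaled by the trimmed mean of ratios, and genes reaching 0.5 RPKM in at least 2 growing libraries were tested by limma 3.58.1 on log2(RPKM + 0.1) with a trend in the variance, in 1 fit with a mean per class, with Benjamini-Hochberg adjustment over all 10518 genes (threshold 0.05). Log2 fold changes are on that scale, which understates the change of low genes. Whole reads could be recovered from the RPKM of 99.9905% of these genes (within 0.02 reads), and edgeR on them called 1 member higher and 6 lower, and 3243 and 3381 genes, over the whole course. Methylated and unmethylated calls at starts and bodies with at least 5 positions of 5 reads in all 6 RRBS libraries were tested by edgeR 4.0.16 (quasi-likelihood, interaction of call state and class). Gene starts came from the expression table.

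On simulated data limma recovered 84 of 100 genes changed by 1 and 97 of 100 changed by 2 on the log2 scale, with 17 unchanged genes called. The methylation test, with 200 regions raised by 30 points from 40-45 to 60-65 μm, recovered 188 at 11984 starts and 126 at 7093 bodies. There replicates were simulated with fixed spreads, a smaller one at low methylation and a larger one above. A first simulation, with the larger spread at all levels and a higher lowest methylation, recovered 0 of 200 at both. These settings were changed after that was seen, and the test itself was left as it was. Power to detect methylation changes thus depends on the settings assumed.

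The 10 genes and the lists of other genes were chosen with earlier results of these data known. From the lists, up to 12 called genes of largest change over the whole course are named, and for each member the gene of highest Pearson correlation. Alternatives were other scalings, pseudocount 1, no filter, a replicate block, fits of 2 classes, leaving out each library, edgeR, read minimums, windows, pooled calls and limma on calls. Columns of other samples numbered 0. Analyses used R 4.3.3 and Python 3.11.15.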

Additional observations from a re-analysis of the deposited data

How the results depend on the processing

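Over the whole course the direction of every member and the calls of Mov10l1, Mael, Piwil2, Ddx4 and Tdrd9 held under all alternatives run, with Mov10l1 at -2.81 to -2.10 and Piwil2 at -1.60 to -1.37 on the log2 scale. Members called lower from 40-45 to 50-55 μm numbered 0 with no filter on low values and 0 to 3 when 1 library was left out, against 3. Members called higher over the whole course numbered 0 to 1 when 1 library was left out. Bodies of members called higher from 50-55 to 60-65 μm numbered 2 (Mov10l1 and Tdrd9) when only bodies of at least 5% mean methylation were tested, against 0, and those from 40-45 to 50-55 μm numbered 1 to 4 when 1 library was left out, against 3. The mean of the library medians of start methylation over the 5 members tested at 50-55 μm was 8.57% at 1 read per position against 3.60%, a value that rests on replicate B (6.86%, against 0.347% in replicate A). Directions turned only for uncalled changes: from 10-30 to 40-45 μm Gtsf1 gave -0.05 with no scaling and Asz1 0.03 with no filter, while leaving out 1 library gave -0.08 to 0.09 for Gtsf1, -0.20 to 0.15 for Asz1 and -0.15 to 0.03 for Ddx4. From 40-45 to 50-55 μm it gave -0.04 to 0.31 for Asz1 and -0.01 to 0.11 for Tdrd7. The cause of these shifts was not tested, except that fewer libraries were used where one was left out.

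With both libraries of each class, counts over all genes that moved by over 1.5 times were 383 higher and 166 lower with no filter (against 594 and 326, 40-45 to 50-55 μm), 8 higher with pseudocount 1 (against 0, 50-55 to 60-65 μm) and 591 and 371 in a fit of 2 classes (against 1386 and 1035, 10-30 to 40-45 μm). At gene starts they were 101 and 170 of 247 starts with at least 5% mean methylation, 0 and 107 by limma (against 9 from 40-45 to 50-55 μm and 71 from 40-45 to 60-65 μm), 2 at 10 reads and 4 in 500 bp windows (against 9), and 121 in 2 kb windows (against 71). At bodies 1621 of 4096 with at least 5% mean methylation were called higher in the last step, against 0. Leaving out 1 library gave 571 to 1546 higher and 290 to 1375 lower from 10-30 to 40-45 μm, 0 to 904 and 0 to 766 from 40-45 to 50-55 μm, and 1 to 18, 0 to 1 and 21 to 101 starts higher from 40-45 to 50-55, 50-55 to 60-65 and 40-45 to 60-65 μm. No label ties the replicate letters to a shared animal or day, and not every pair of classes correlated, so they were not taken as pairs. Deviations of replicate A correlated at 0.5881 to 0.6693 among the 3 smaller RNA classes, but at -0.2274, -0.0256 and 0.1133 between these and 60-65 μm, and at -0.05936 to 0.038 between RRBS classes. With the replicate block 1065 genes were called higher and 786 lower from 40-45 to 50-55 μm, 152 and 78 from 50-55 to 60-65 μm, and 2 members higher over the whole course (Pld6 and Asz1, limma adjusted p for Asz1 0.048). DESeq2 had been planned for a table of counts and was not run. Few or no cytosines were covered by RRBS at the starts of Gtsf1, Mov10l1 and Tdrd7 and in the bodies of Ddx4 and Mael.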
